A study of Homo sapiens with 24 samples.

Results

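The effect of plasmid transfection itself was examined by comparing HEK293 cells that carried the empty pCMV-flag vector with HEK293 cells that were not transfected, both left without H2O2 for 8 h. HEK293 is an established human embryonic kidney cell line. The comparison was chosen by its groups, empty vector and untransfected, and not by any measured value. It holds 6 of the 24 samples of the series, 3 per group, and each batch of the experiment (1, 2 and 3) gave 1 sample of each group, so the samples form 3 pairs. The other 18 samples were cells transfected with EVI1-WT or EVI1-AQA plasmids, which express a haematopoietic transcription factor or its mutated form from the same vector, and all groups exposed to 150 μM H2O2 for 8 h. Transfection was transient, in cultures that had not reached confluence, and no selection for transfected cells was described. Whether the untransfected cells received the transfection reagent was not given, so plasmid DNA and reagent cannot be told apart in this comparison. The labels give all samples the same source name, transfected HEK293, and only the plasmid entry marks the untransfected ones. The growth protocol in the labels also describes reporter plasmids for luciferase assays, and whether the cells used for RNA held them was not given.

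An empty vector is the plasmid backbone, here with the strong viral CMV promoter and a FLAG tag, without an inserted coding sequence. Cells that take up plasmid DNA are exposed to lipid or polymer carriers that enter by endocytosis, and to cytosolic DNA, which in many cell types is sensed by pathways that induce interferon and inflammatory genes. HEK293 cells are known for efficient transfection and for a weak response to cytosolic DNA. Untransfected cells are the reference for what the procedure changes, whereas the empty vector is the usual control for a transfected gene.

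The 24 libraries read the 3′ ends of polyadenylated RNA, and the deposited table gives log2 expression values for 11579 rows, 1 per gene. Every row has a mean of 0 within each batch of 8 samples, with a largest departure of 4.5e-06, so a value states how far a sample lay above or below the mean of its batch. The table holds differences between samples and no levels. Marker genes of the cell line could therefore not be checked as present or absent, genes could not be compared with each other in abundance, and the sequencing depth of the samples is unknown. In bulk RNA, a change in the share of cells that express a gene and a change in RNA per cell cannot be told apart. Row labels outside chromosome 1 did not behave as gene labels should. On chromosome 1, 50.7% of coding genes and 2.39% of other genes had a row, but on chromosomes 2 to 22 these shares were 19.3% and 16.4%. Genes were therefore named only from the 1131 rows whose identifier lies on chromosome 1 of GRCh38, of which 1045 are protein coding, while every test and adjustment used all 11579 rows. The labels do not say whether the 3 samples of a group came from separate cultures, so the p-values measure the spread between these samples only. The row labelled CACNB3, singled out after its values were seen, separated most samples with EVI1 plasmids from the rest. The label serves here only to point at the row, and which gene it measures was not established. The 6 samples compared here lay between -4.49 and -1.64 in it and the untreated EVI1 samples between 2.62 and 4.14. In 3 H2O2 libraries this row went against the label. The library labelled empty vector with H2O2, batch 2, stood at 4.36, where the other 2 of its group stood at -3.48 and -2.17, and the libraries labelled EVI1-WT with H2O2, batch 2, and EVI1-AQA with H2O2, batch 1, stood at -4.38 and -2.60. None of these 3 is among the 6 samples, and they entered the fit only through the common estimate of the spread.

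Transfection with the empty vector was accompanied by small differences in RNA. On chromosome 1 the lead genes were SPATA1, the kinase TESK2 and the RNA-binding proteins RBM15 and SRSF4, which were up to 2.03-fold higher, and the actin-binding protein TAGLN2, the antiviral helicase MOV10 and the exon junction subunit MAGOH, which were lower. Of the 8 chromosome 1 rows listed for the interferon and nucleic acid response, MOV10 alone reached an unadjusted p under 0.05. The interferon-induced genes ISG15 and IFI6 did not reach it in either direction. None of these differences passed adjustment over the whole table. No row of the table passed a Benjamini-Hochberg adjusted p of 0.05 in the limma fit with the batch as a block, and the smallest adjusted p was 0.0981. At an unadjusted p under 0.05, 1397 of the 11579 rows (12.1%) differed, 761 of them higher (6.57%) and 636 lower (5.49%) with empty vector. Without the batch block, limma gave 17 rows at an adjusted p under 0.05, 13 higher and 4 lower, and 1700 rows at an unadjusted p under 0.05. On chromosome 1, 125 of 1131 rows (11.1%) were at an unadjusted p under 0.05, 67 higher (5.92%) and 58 lower (5.13%), and none passed adjustment, with a smallest adjusted p of 0.135. In the fit without the block 1 chromosome 1 row passed, SPATA1, at an adjusted p of 0.0479 from limma. That fit leaves out of account the degrees of freedom used by the centring within batches. In simulated centred values, 9.71% of its adjusted calls were false, against 4.73% with the block. Of the unchanged simulated rows, 6.97% were at an unadjusted p under 0.05, against 5.09% with the block. The median log2 difference was 0.0054 over all rows and -0.0044 on chromosome 1. The differences at an unadjusted p under 0.05 ran from 0.30 to 1.14 for the 67 higher rows and from -1.29 to -0.27 for the 58 lower rows, and their medians of 0.50 and -0.51 are a description, since the rows were picked by the same values. In the following, higher and lower refer to empty vector against untransfected cells, and a row is called where its unadjusted p from limma was under 0.05. Adjusted p-values are from limma over all rows, and a call is lost without a batch where a fit without that batch gave an unadjusted p of 0.05 or more, with the log2 difference of that fit beside it. With 3 against 3 samples an exact permutation test of a single gene that ignores the pairs cannot give a two-sided p below 0.1. For a test that keeps the pairs this floor is higher still.

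The counts depended on single batches. Without batch 2 the called rows of chromosome 1 fell in number to 29 higher and 17 lower, and of the 67 and 58 rows 17 and 12 were still called. Without batch 1 there were 91 higher and 99 lower rows, of which 60 and 47 were among the original ones, and without batch 3 there were 49 and 49, of which 28 and 25 were. No called row changed sign in any of these fits. The rows had been called on the same 3 pairs, of which each fit keeps 2, so this is largely set by the picking. The SD of the difference over the chromosome 1 rows was 0.270 in pair 1, 0.571 in pair 2 and 0.438 in pair 3. The 3 pairs shared little. Over the 1131 rows the pair differences correlated at 0.114 between batches 1 and 2, at 0.0011 between 1 and 3 and at 0.201 between 2 and 3. Each value is a description across rows, which share libraries. In all, 341 of 1131 rows (30.2%) moved the same way in all 3 pairs, beside 30.4% of all rows. Values of the groups did not overlap in 82 rows that were higher (7.25%) and 74 that were lower (6.54%).

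The 2 genes with the lowest p in each direction, among those that moved the same way in all 3 pairs, were SPATA1 and TESK2 (higher) and TAGLN2 and MOV10 (lower). The 250 bases before a RefSeq start site are shown for each of these 4, none of which passed adjustment. The windows are RefSeq promoter sequences on GRCh38.p14, written 5′ to 3′ on the strand of the gene. SPATA1 lies on the plus strand with the window chr1:84506136-84506385, TESK2 on the minus strand with chr1:45491164-45491413, TAGLN2 on the minus strand with chr1:159925508-159925757, and MOV10 on the plus strand with chr1:112674189-112674438. The RefSeq table holds 3 windows each for TAGLN2 and MOV10, and the one nearest to the annotated start of the gene was used. For MOV10 the GENCODE v44 gene starts at chr1:112673141. Its window thus lies inside the annotated gene and not before its start. For SPATA1 the annotated start, chr1:84506300, falls within the window. Capitals mark matches, on either strand, to 7 motifs: the CCAAT box (CCAAT), the GC box (GGGCGG), the ETS site (CCGGAAGT), the cyclic AMP response element (TGACGTCA), the E-box (CACGTG), the interferon-stimulated response element (GAAA, any 2 bases, GAAA) and the TATA box (TATAAA).
SPATA1: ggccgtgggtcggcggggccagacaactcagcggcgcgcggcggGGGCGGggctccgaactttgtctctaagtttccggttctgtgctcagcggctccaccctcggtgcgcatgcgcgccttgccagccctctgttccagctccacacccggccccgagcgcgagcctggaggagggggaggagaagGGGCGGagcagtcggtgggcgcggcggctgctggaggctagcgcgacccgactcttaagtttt
TESK2: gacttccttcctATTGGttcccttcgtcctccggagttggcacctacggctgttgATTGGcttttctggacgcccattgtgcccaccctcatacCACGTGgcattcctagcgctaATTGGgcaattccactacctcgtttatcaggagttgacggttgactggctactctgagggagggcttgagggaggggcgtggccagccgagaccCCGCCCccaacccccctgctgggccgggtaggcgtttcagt
TAGLN2: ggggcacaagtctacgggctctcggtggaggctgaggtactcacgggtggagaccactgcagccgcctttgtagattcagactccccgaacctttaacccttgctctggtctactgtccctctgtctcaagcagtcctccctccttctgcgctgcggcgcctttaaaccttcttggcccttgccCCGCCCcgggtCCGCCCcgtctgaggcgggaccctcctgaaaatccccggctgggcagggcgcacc
MOV10: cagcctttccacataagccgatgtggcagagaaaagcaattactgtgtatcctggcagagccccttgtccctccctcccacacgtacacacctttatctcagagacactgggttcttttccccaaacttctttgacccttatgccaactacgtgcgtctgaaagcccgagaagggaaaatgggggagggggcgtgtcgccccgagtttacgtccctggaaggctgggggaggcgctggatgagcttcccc

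The windows shown for SPATA1 and TAGLN2 each held 2 GC boxes, that for TESK2 held 3 CCAAT boxes, 1 E-box and 1 GC box, and that for MOV10 held no match. The other windows of TAGLN2 and MOV10 were not described. Of the 1131 chromosome 1 rows 938 had a window, 56 of them higher and 45 lower. The GC box was in 71.4% of the windows of higher rows, 68.9% of those of lower rows, 68.9% of all 938 and 43.0% of the 3598 chromosome 1 windows of the same length. The CCAAT box was in 32.1%, 26.7%, 36.5% and 33.1% of these. The interferon-stimulated element was in 1 of 56 windows of higher rows and in none of 45 of lower rows, beside 15 of the 938, and the cyclic AMP element was in 1 of each, beside 2.56%. A match is a description of the letters in the window, and no match says only that these letters were not in it.

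The genes that led the higher rows were SPATA1, TESK2, SERINC2, RBM15, PPIE, PPP1R12B, SRSF4, ADGRB2, FAM20B, CEP170, RNPC3 and SVBP. SPATA1 (ENSG00000122432) encodes a spermatogenesis-associated protein of little known function. It stood at -0.75, -0.71 and -1.14 in the untransfected samples of batches 1, 2 and 3 and at 0.00, 0.17 and 0.30 with empty vector. All empty vector samples lay above all untransfected ones, by 1.02 on the log2 scale (SE 0.22, 2.03-fold, adjusted p = 0.135). The locus of SPATA1 overlaps CTBS and GNG5, which also have rows, and whether reads were counted by strand was not given, so reads of these genes could be shared. TESK2, a kinase that phosphorylates the actin-severing protein cofilin, stood at -0.67, -0.80 and -1.50 untransfected and at 0.02, -0.01 and -0.01 with empty vector. The groups did not overlap and differed by 0.99 (SE 0.22, 1.99-fold, adjusted p = 0.145), and most of the spread was in the untransfected samples. TESK2 overlaps TOE1, which has a row as well.

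SERINC2, a multi-pass membrane protein of the serine incorporator family, stood at -0.47, -0.73 and -0.48 untransfected and at -0.23, 0.49 and 0.39 with empty vector. The groups did not overlap, but batch 1 gave the smallest step, and the mean difference was 0.78 (SE 0.17, adjusted p = 0.157). RBM15 encodes an RNA-binding protein that guides the adenosine methylation complex to transcripts. Its values were -0.86, -0.95 and -0.82 untransfected and -0.48, 0.20 and -0.02 with empty vector. The untransfected samples were close together and all below the empty vector samples, with a difference of 0.77 (SE 0.18, adjusted p = 0.168). SRSF4, an SR protein of pre-mRNA splicing, stood at -0.20, -1.01 and -1.18 untransfected and at -0.14, 0.07 and 0.00 with empty vector. In batch 1 the samples of SRSF4 were nearly equal, and the difference of 0.78 (SE 0.20, adjusted p = 0.207) came from batches 2 and 3.

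PPIE, a peptidyl-prolyl isomerase of the spliceosome, stood at -0.17, -0.55 and -0.41 untransfected and at -0.01, 0.16 and 0.37 with empty vector, a difference of 0.55 (SE 0.14, adjusted p = 0.188). Its groups did not overlap, and its locus overlaps BMP8B. PPP1R12B, a regulatory subunit of myosin phosphatase, was higher by 0.82 (SE 0.21), with a pair difference of 1.77 in batch 2 against 0.50 and 0.20 in batches 1 and 3. ADGRB2, an adhesion G protein-coupled receptor, was higher by 0.77 (SE 0.21), and SVBP, the small partner of the vasohibin tubulin carboxypeptidases, by 0.75 (SE 0.23). RNPC3, a protein of the minor spliceosome, was higher by 0.63 (SE 0.18), FAM20B, a Golgi kinase that acts on the linker of proteoglycan chains, by 0.60 (SE 0.16), and CEP170, a protein of the centrosome's appendages, by 0.51 (SE 0.14). Of these 12 genes, 10 were still called when each batch was left out in turn, and PPP1R12B and CEP170 were lost without batch 2, at 0.35 and 0.27. The 12 had been picked by p and by direction in the same 3 pairs, which favours keeping the call. Of all 67 higher rows, 60 were still called without batch 1, 17 without batch 2 and 28 without batch 3. EFNA4, an ephrin ligand of Eph receptor kinases, had the largest difference of the 67 rows, 1.14 (SE 0.35, adjusted p = 0.257), and came later by p.

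The genes that led the lower rows were TAGLN2, MOV10, MAGOH, POLR3C, MTARC2, PAQR7, SOAT1, URB2, COP1, TOR3A, SDCCAG8 and S100A11. TAGLN2 (transgelin 2, ENSG00000158710), an actin-binding protein, stood at 0.10, 0.34 and 0.35 in the untransfected samples of batches 1, 2 and 3 and at -0.26, -0.43 and -0.23 with empty vector. All empty vector samples lay below all untransfected ones, and the difference was -0.57 (SE 0.14, adjusted p = 0.188), so that untransfected cells held 1.48 times as much. MOV10 (ENSG00000155363), an RNA helicase that restricts retroviruses and retroelements, stood at 0.39, 0.19 and 0.83 untransfected and at 0.03, -0.33 and -0.19 with empty vector. The groups did not overlap, with a difference of -0.64 (SE 0.18, adjusted p = 0.242). MAGOH, a core subunit of the exon junction complex, stood at -0.04, 0.12 and 0.45 untransfected and at -0.37, -0.35 and -0.29 with empty vector. Its empty vector samples were close together and below all untransfected samples, with a difference of -0.52 (SE 0.14, adjusted p = 0.242). MAGOH has a nearly identical copy, MAGOHB, so its reads may be split between both loci.

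POLR3C, a subunit of RNA polymerase III, stood at 0.18, 1.17 and 0.58 untransfected and at -0.22, -0.72 and -0.10 with empty vector. The groups did not overlap, and the difference of -0.99 (SE 0.28, adjusted p = 0.242) was largest in batch 2. Its locus overlaps RNF115. MTARC2, a mitochondrial molybdenum enzyme whose row carries a date in place of its older symbol and was identified by its gene identifier, was at -0.95 (SE 0.29), with pair differences of -0.59, -1.79 and -0.46. PAQR7, a membrane progestin receptor, was at -0.63 (SE 0.19) with nearly equal samples in batch 3. URB2, a ribosome biogenesis factor, was at -0.67 (SE 0.21), SOAT1, which esterifies cholesterol for storage, at -0.43 (SE 0.13), COP1, an E3 ubiquitin ligase, at -0.54 (SE 0.17), and TOR3A, an ATPase of the torsin family in the endoplasmic reticulum, at -0.42 (SE 0.14). SDCCAG8, a centrosome and cilium protein, was at -0.46 (SE 0.15), and S100A11, a calcium-binding protein, at -0.60 (SE 0.20). Of these 12 genes, TAGLN2, MOV10 and MAGOH were still called without each batch in turn. They too had been picked by p and direction in the same pairs. Of all 58 lower rows, 47 were still called without batch 1, 12 without batch 2 and 25 without batch 3. POLR3C, MTARC2, PAQR7, TOR3A, SDCCAG8 and S100A11 were lost without batch 2, at -0.54, -0.53, -0.43, -0.34, -0.35 and -0.51 in this order. SOAT1 (-0.33) and COP1 (-0.51) were lost without batch 3, and URB2 was lost without batch 2 (-0.52) or batch 3 (-0.57).

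**Figure D1:**
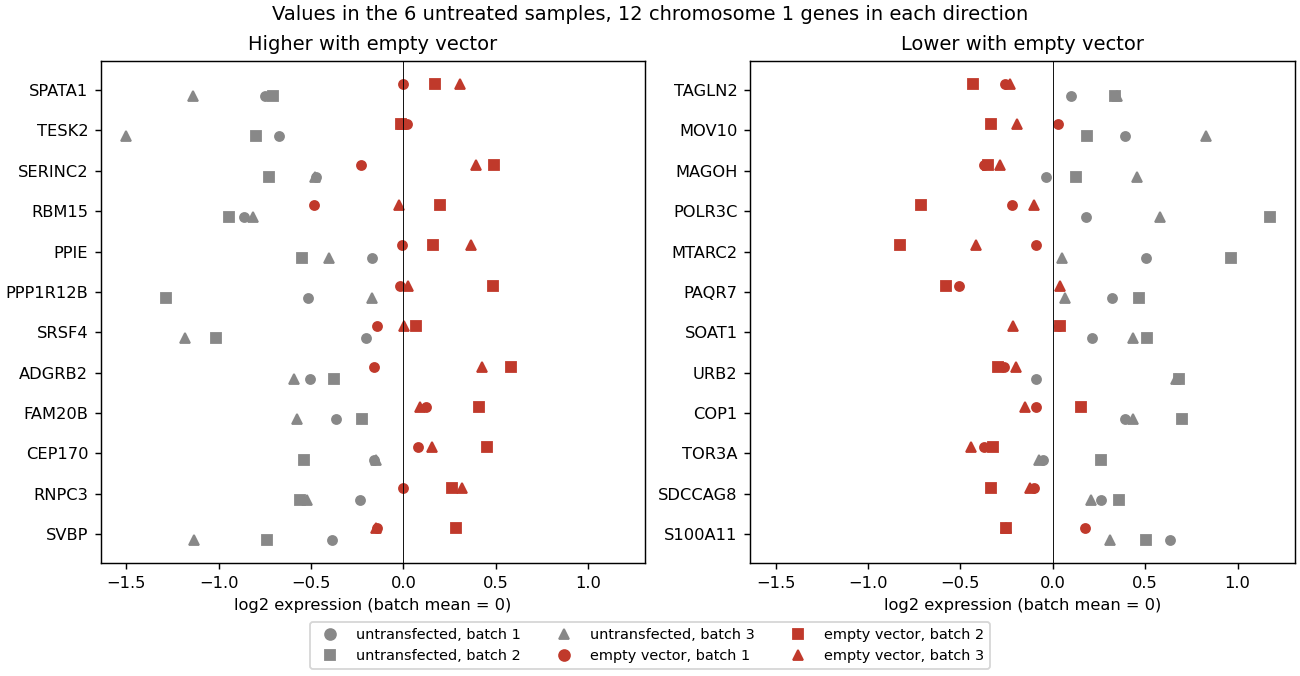
Log2 expression (x axis, in log2 units with the mean of each batch at 0) of the 12 chromosome 1 genes lowest by p in each direction, one row per gene. Grey symbols are the 3 untransfected and red symbols the 3 empty vector samples, and circles, squares and triangles are batches 1, 2 and 3. For SPATA1 the grey symbols lie between -1.14 and -0.71 and the red ones between 0.00 and 0.30, and for TAGLN2 the grey ones lie between 0.10 and 0.35 and the red ones between -0.43 and -0.23.

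Gene lists of 20 pathways and structures gave 252 distinct members with a row on chromosome 1. Of these 19 were called higher and 11 lower, 11.9% in all, beside 11.1% of all chromosome 1 rows, so the share among the listed genes was near the background. Leaving out batch 1 gave 30 higher and 15 lower members, leaving out batch 2 gave 5 and 6, and leaving out batch 3 gave 7 and 14. None of the lists held a row at an adjusted p under 0.05, with or without the batch block. The medians of the lists are given beside the median of -0.0044 over all chromosome 1 rows.

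Genes of the interferon and nucleic acid response had 8 rows, with 0 called higher and 1 lower, and a median log2 difference of 0.008. The 1 called was MOV10, described above. ISG15, a ubiquitin-like protein that is among the first genes induced by interferon, stood at -1.30, -0.11 and 0.21 untransfected and at -0.93, -0.15 and -0.12 with empty vector. The groups of ISG15 overlapped fully, with a difference of 0.00 (SE 0.34) and a 95% interval of -0.72 to 0.72. IFI6, an interferon-induced membrane protein, was at 0.19, the RNA-editing enzyme ADAR at -0.21, the helicase DHX9 at -0.12 and the kinase JAK1 at 0.30, none of them called. The other 14 of the 22 listed genes, among them the DNA sensors IFI16 and AIM2 and the guanylate-binding proteins GBP1 to GBP5, had no row here, so they were not analysed here.

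Immediate early and stress genes had 13 rows, with 0 higher and 1 lower, and a median of -0.063. CCN1, a matricellular protein induced by serum and by YAP, stood at 0.11, 0.29 and -0.14 untransfected and at -0.47, -0.55 and -0.24 with empty vector. Its groups did not overlap and differed by -0.51 (SE 0.18, adjusted p = 0.319), and the call was lost without batch 1 (-0.47) or batch 2 (-0.34). JUN, a subunit of the AP-1 transcription factor, stood at -0.33, 0.07 and 0.94 untransfected and at -0.17, 0.26 and 0.41 with empty vector, a difference of -0.06 (SE 0.34) whose sign turned under quantile normalization (0.03). ATF3, an inducible repressor of the ATF family, was at -0.38 and the growth arrest gene GADD45A at -0.42, whereas ID3, an inhibitor of helix-loop-helix factors, was at 0.50, none of them called. These 3 values came mainly from batch 2, with pair differences of 0.23, -1.26 and -0.12 for ATF3, -0.03, -1.03 and -0.20 for GADD45A and -0.06, 1.16 and 0.42 for ID3, and without batch 2 they were 0.06, -0.12 and 0.18. In the p53 pathway 0 of 11 rows were called, with a median of 0.036. SESN2, a stress-induced inhibitor of mTORC1 signalling with the lowest p of that list, stood at 0.44, 0.78 and 1.03 untransfected and at 0.37, -0.24 and 0.48 with empty vector, which overlap (difference -0.55, SE 0.30, adjusted p = 0.478).

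Of the genes that fold and export proteins, none of 7 cytosolic chaperones was called, with a median of 0.094, and of 18 genes of the endoplasmic reticulum and early secretory pathway 1 was higher, with a median of 0.035. That gene was ARF1, the small GTPase that recruits the COPI coat to the Golgi, which stood at -0.22, -0.62 and -0.89 untransfected and at -0.27, 0.26 and -0.17 with empty vector. ARF1 differed by 0.51 (SE 0.18, adjusted p = 0.301), its groups overlapped, and the call was lost without batch 2 (0.33) or batch 3 (0.41). The stress sensor ATF6 was at -0.32 and the COPI subunit COPA at 0.00, neither called. The value of ATF6 came from batch 2, with pair differences of 0.06, -1.01 and -0.03, and without that batch it was 0.02. PFDN2, a subunit of the prefoldin chaperone, had the lowest p of the chaperones, with 0.28 (SE 0.14, adjusted p = 0.444).

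Endosomal and lysosomal genes had 22 rows, of which 17 lay above 0, 2 were higher and 0 lower, with a median of 0.144. RAB29, a small GTPase that acts at the Golgi and lysosomes, stood at -0.33, -0.44 and -0.23 untransfected and at -0.21, 0.39 and 0.11 with empty vector. Its groups did not overlap and differed by 0.43 (SE 0.16, adjusted p = 0.336). MAN1A2, a Golgi mannosidase of N-glycan processing, was higher by 0.38 (SE 0.16, adjusted p = 0.377). Both calls were lost without batch 2, at 0.23 and 0.22, and the median of the list was then 0.068, with 15 of 22 rows above 0. Without batch 3 the median was 0.067, with 13 of 22 rows above 0, 2 called higher and 1 lower. The other 20 rows of this list were not called. The SNARE proteins VAMP4 and VAMP3 were at 0.32 and 0.22, the sorting nexin SNX27 at 0.19, the proton pump subunit ATP6V0B at 0.24 and the chitobiase CTBS, whose locus overlaps SPATA1, at -0.31.

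Thiol antioxidant and glutathione genes had 14 rows and 0 calls, with a median of 0.115. PRDX1, a peroxiredoxin that reduces H2O2, stood at 0.02, -0.30 and -0.32 untransfected and at -0.03, 0.05 and -0.91 with empty vector. Its groups overlapped, its difference was -0.10 (SE 0.22), and the sign turned to 0.15 without batch 3. MGST3, a microsomal glutathione transferase with the lowest p of the list, was at 0.29 (SE 0.15, adjusted p = 0.47).

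Splicing factors had 25 rows, of which 3 were higher and 2 lower, with a median of -0.005. The higher members were SRSF4, RBM15 and PPIE and the lower ones MAGOH and SF3A3, a subunit of the splicing factor SF3a at -0.30 (SE 0.13, adjusted p = 0.377). Without batch 2 the count was 3 higher and 1 lower, without batch 1 it was 3 and 2, and without batch 3 it was 3 and 3. SF3A3 was lost without batch 1 (-0.30) or batch 2 (-0.17). The exon junction subunit RBM8A, which binds MAGOH, was at -0.12, the nuclear scaffold protein HNRNPU at -0.31 and the SR proteins SRSF10 and SRSF11 at -0.09 and 0.03, none of them called.

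Mitosis genes had 18 rows, of which 2 were higher and 0 lower, with a median of 0.083 and 13 rows above 0. KIF2C, a kinesin that depolymerizes microtubules at kinetochores, stood at 0.00, -0.69 and -0.73 untransfected and at -0.06, 0.41 and 0.14 with empty vector. In batch 1 the samples of KIF2C were nearly equal, and the difference was 0.63 (SE 0.20, adjusted p = 0.266). Its call was lost without batch 2 (0.40) or batch 3 (0.52). CDCA8, the borealin subunit of the chromosomal passenger complex, was higher by 0.49 (SE 0.22, adjusted p = 0.398) with a pair difference of -0.24 in batch 1, and it was lost without batch 2 (0.21) or batch 3 (0.40). CDC20, the activator of the anaphase-promoting complex, stood at 0.07, -0.81 and 0.37 untransfected and at 0.06, 0.70 and -0.10 with empty vector, so that batch 2 alone gave its difference of 0.35 (SE 0.29), and without batch 2 it was -0.24. Without batch 2 no mitosis gene was called, 7 of 18 lay above 0 and the median was -0.010. Without batch 3 none was called either, but 15 of 18 lay above 0 and the median was 0.207. Without batch 1 the count was 5 higher and 1 lower.

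DNA replication and repair genes had 15 rows, of which 13 lay below 0, with 1 higher, 1 lower and a median of -0.084. E2F2, a transcription factor of S phase entry, stood at -0.64, 0.37 and 0.38 untransfected and at -0.66, -0.58 and -0.18 with empty vector, a difference of -0.51 (SE 0.23, adjusted p = 0.393) with a pair difference of -0.02 in batch 1. DCLRE1B, the Apollo nuclease of telomere ends, was higher by 0.43 (SE 0.14, adjusted p = 0.282) in groups that did not overlap, and its locus overlaps AP4B1. Both were lost without batch 2 (E2F2 at -0.29 and DCLRE1B at 0.43) or batch 3 (-0.49 and 0.32). Without batch 2, 6 of the 15 rows lay below 0 and the median was 0.028. Of the histone genes 2 had a row and none was called. H2AC20, a replication-dependent H2A gene with RNA that mostly lacks a poly(A) tail, was at -0.36 (SE 0.34), and at 0.13 without batch 2.

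Cytosolic ribosomal proteins had 5 rows and 0 calls, from -0.14 for RPL5 to 0.17 for RPL11, with a median of 0.077. RPL5 had a 95% interval of -0.40 to 0.12. Among 8 mitochondrial ribosomal proteins MRPS14 was higher, by 0.48 (SE 0.21, adjusted p = 0.377), with a pair difference of 1.18 in batch 2 and of -0.04 in batch 1, and its locus overlaps CACYBP. Among 10 genes of the respiratory chain and ATP synthase NDUFS5, a subunit of complex I, was higher by 0.46 (SE 0.18, adjusted p = 0.348), with 1.01 in batch 2. Both were lost without batch 2 (MRPS14 at 0.13 and NDUFS5 at 0.19) or batch 3 (0.57 and 0.55). The medians of these lists were 0.050 and 0.017. None of 5 proteasome genes was called, with a median of -0.018, and UCHL5, a deubiquitinase of the proteasome, was lowest at -0.31 (SE 0.20, adjusted p = 0.543).

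tRNA synthetases and genes of amino acid metabolism had 13 rows, of which 9 lay below 0, with 0 higher, 2 lower and a median of -0.151. CTH, the enzyme that makes cysteine from cystathionine, was at -0.60 (SE 0.23, adjusted p = 0.347) with a pair difference of 0.04 in batch 1. YARS1, the cytosolic tyrosyl-tRNA synthetase, stood at 0.48, 0.77 and 0.36 untransfected and at 0.38, -0.13 and 0.14 with empty vector. The groups of YARS1 overlapped and differed by -0.41 (SE 0.18, adjusted p = 0.389), its locus overlaps S100PBP, and the call was lost without batch 2 (-0.16) or batch 3 (-0.50). PHGDH, the first enzyme of serine synthesis, was at -0.39, EPRS1 at -0.33 and SARS1, the seryl-tRNA synthetase, at -0.29, none of them called. Batch 2 gave most of these values, with pair differences of -0.25, -1.11 and 0.20 for PHGDH, -0.13, -0.87 and 0.00 for EPRS1 and 0.17, -1.13 and 0.09 for SARS1, and without batch 2 they were -0.03, -0.06 and 0.13. CTH was lost without batch 2 (-0.55) or batch 3 (-0.33). Without batch 2 the median was -0.048 and 1 row other than CTH and YARS1 was called lower. Without batch 1 the count was 1 higher and 2 lower with a median of -0.050.

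Cholesterol and lipid genes had 17 rows, with 3 higher, 1 lower and a median of -0.037. PLPP3, a phosphatase of lipid phosphates, was at 0.48 (SE 0.22, adjusted p = 0.394) and ACBD3, a Golgi adaptor that binds acyl-CoA, at 0.32 (SE 0.14, adjusted p = 0.393), and both were lost without batch 2 (0.28 and 0.14) or batch 3 (0.44 and 0.35). FDPS, the farnesyl diphosphate synthase, was at 0.59 without being called, and SOAT1 was the lower gene. Without batch 2 none was higher and 1 was lower, and without batch 3 the count was 1 and 1.

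Chromatin regulators had 24 rows, with 2 higher, 1 lower and a median of -0.020. TAF12, a subunit of TFIID and SAGA, stood at -0.16, -0.22 and -0.19 untransfected and at 0.01, 0.33 and 0.22 with empty vector, which did not overlap (difference 0.37, SE 0.14, adjusted p = 0.33). KDM5B, a histone demethylase, was at 0.32 (SE 0.14, adjusted p = 0.389) and SMYD2, a lysine methyltransferase, at -0.42 (SE 0.19, adjusted p = 0.404). All 3 were lost without batch 2 (0.29, 0.12 and -0.47) or batch 3 (0.36, 0.37 and -0.25). The deacetylase HDAC1 was at -0.03. Actin cytoskeleton and S100 genes had 19 rows, with 3 higher and 2 lower, the latter TAGLN2 and S100A11, and a median of 0.078. The higher ones were WASF2, an activator of the Arp2/3 complex, at 0.44 (SE 0.14, adjusted p = 0.266), TPM3, a tropomyosin, at 0.35 (SE 0.15, adjusted p = 0.377), and STMN1, which sequesters tubulin, at 0.30 (SE 0.14, adjusted p = 0.398). All 3 were lost without batch 2 (0.25, 0.38 and 0.18) or batch 3 (0.37, 0.11 and 0.31), and either fit gave 0 higher and 2 lower. Without batch 3 the 2 lower genes were again TAGLN2 and S100A11. Without batch 2 S100A11 was lost (-0.51), and a member not called in the main fit was counted with TAGLN2. Without batch 1 the count was 4 and 2. The snoRNA host genes SNHG12, SNHG3 and GAS5 were at 0.33, 0.35 and 0.13, with a median of 0.335 and none called. GAS5, whose locus overlaps ZBTB37, stood at -0.18, 0.21 and -0.56 untransfected and at 0.10, -0.24 and 0.01 with empty vector and turned to -0.08 without batch 3, and without batch 2 the list held 2 called higher.

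**Figure D2:**
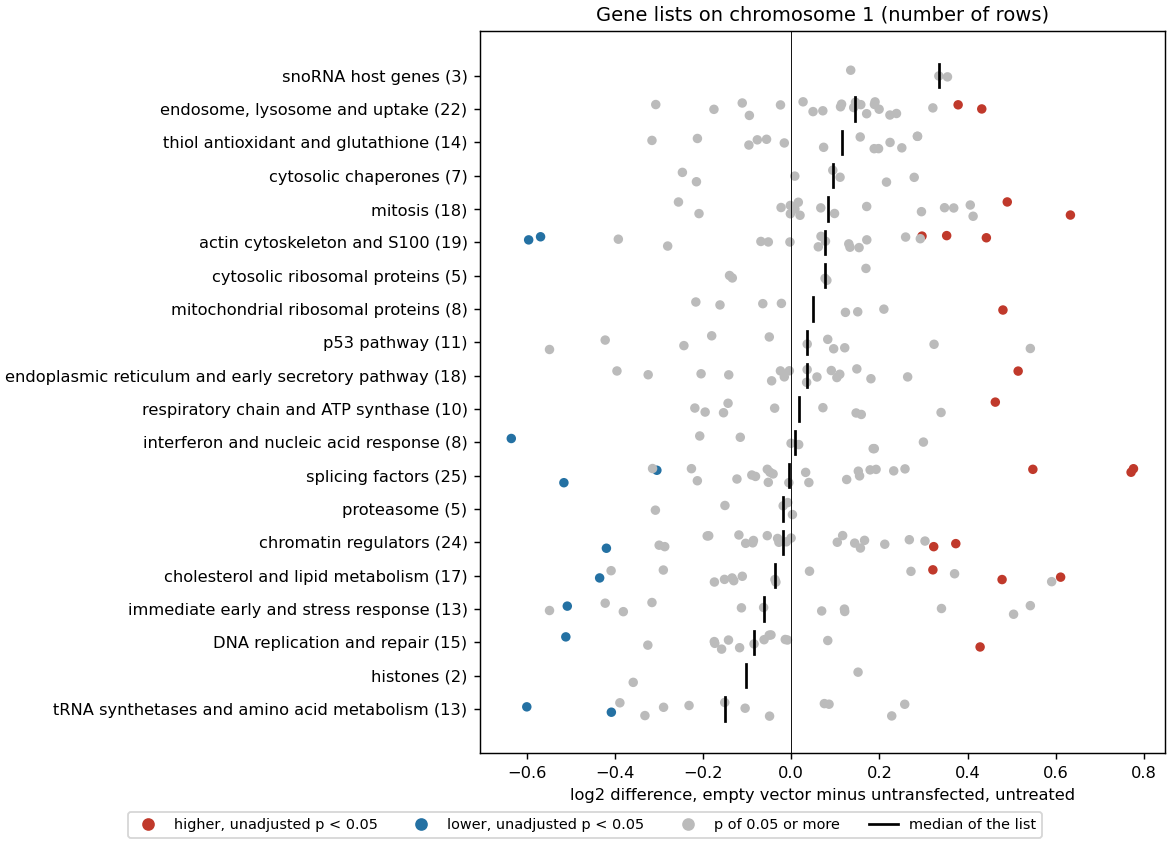
Log2 difference of empty vector minus untransfected cells (x axis, log2 units) for each member with a row on chromosome 1, by gene list (y axis, with the number of rows). Red and blue points were higher or lower at an unadjusted p under 0.05, grey points were not called, and black bars are medians, which run from -0.151 for tRNA synthetases and amino acid metabolism to 0.335 for the 3 snoRNA host genes.

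The batches contributed unequally to the called rows. For the 67 higher rows the median pair difference was 0.18 in batch 1, 0.78 in batch 2 and 0.59 in batch 3. Batch 2 gave the pair difference largest in size in 41 rows, and 51 rows (4.51% of the 1131) moved up in all 3 pairs. Batch 1 gave the smallest in 57, where the sign was kept, so that a value in the other direction counted as smaller. The 15 rows with a negative value in pair 1 included WASF2, CDCA8 and KIF2C, and 1 row, SMIM1, was negative in pair 3. For the 58 lower rows the medians were -0.19, -0.70 and -0.49. Counted in the same ways, batch 2 gave the largest difference in 42 of them and batch 1 the smallest in 45. In all 3 pairs 47 (4.16%) moved down. G0S2, an inhibitor of triglyceride lipase, had the largest difference of the lower rows, at -1.29 (SE 0.52, adjusted p = 0.361), and it came almost wholly from batch 2, with pair differences of -0.10, -3.45 and -0.31. Groups did not overlap in 43 of the 67 and 36 of the 58 rows. These counts describe rows that were picked by the same values.

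The same comparison in cells exposed to H2O2 uses 6 other samples of the same batches and shares no sample with the untreated comparison. Both come from the same fit and share the estimate of the spread of each row. Rows picked by a small untreated p tend to have a small spread, which can raise their counts at an unadjusted p under 0.05 with H2O2. Of the 67 rows that were higher without H2O2, 55 (82.1%) also lay above 0 with H2O2, beside 53.5% of all chromosome 1 rows, and 9 were higher at an unadjusted p under 0.05, beside 4.24%. Of the 58 lower rows, 48 (82.8%) lay below 0 with H2O2, beside 46.5%, and 14 were lower at an unadjusted p under 0.05, beside 4.86%. The library labelled empty vector with H2O2 in batch 2 went against its label in the row named above, so the counts were repeated over batches 1 and 3 of the H2O2 samples. They were then 51 of 67 (76.1%, beside 50.7%) and 46 of 58 (79.3%, beside 49.3%). In a fit without the 3 H2O2 libraries that departed from their labels, 53 of 67 and 48 of 58 kept their direction, and 6 of 67 were higher at an unadjusted p under 0.05 (beside 1.24%) and 3 of 58 lower (beside 1.68%). Over the 1131 rows the log2 differences without and with H2O2 correlated at 0.461, at 0.496 within batch 2 alone and at 0.216 over batches 1 and 3. These are descriptions across rows, which share libraries. The differences were smaller with H2O2, or reversed in sign, in 66 of the 67 and 53 of the 58 rows. Their medians were 0.24 and -0.24 against 0.50 and -0.51, and the rows had been picked on the untreated values.

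SPATA1 was higher with empty vector in all 3 H2O2 pairs, by 0.69, 1.31 and 0.75, with a mean of 0.92 (SE 0.22) beside 1.02 untreated, and of 0.89 (SE 0.23) without the departing libraries. SVBP followed with 0.32, 0.91 and 0.82. TESK2 did not, with 0.11, 0.22 and -0.42 and a mean of -0.03 (SE 0.22) beside 0.99 untreated. Of the lower genes SDCCAG8 was at -0.66 (SE 0.15) with H2O2, URB2 at -0.56 (SE 0.21) and SOAT1 at -0.36 (SE 0.13), each lower in all 3 H2O2 pairs, whereas TOR3A and MAGOH were at -0.01 and -0.03. Without the departing libraries SDCCAG8 was at -0.59, URB2 at -0.43 and SOAT1 at -0.32. The difference between the effects with and without H2O2 was tested directly. No row passed an adjusted p of 0.05 from limma, with a smallest adjusted p of 0.9996. At an unadjusted p under 0.05 the effects differed in 367 of all rows (3.17%), in 31 chromosome 1 rows (2.74%), and in 7 of the 67 and 9 of the 58 rows. The 67 and 58 rows had been picked on the untreated difference, which is subtracted in this test. A higher share among them than over all rows can follow from the picking alone. The fit without the block gave 0 adjusted and 514 unadjusted calls. Without batch 2 the 367 became 231, and without the 3 departing libraries 340.

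**Figure D3:**
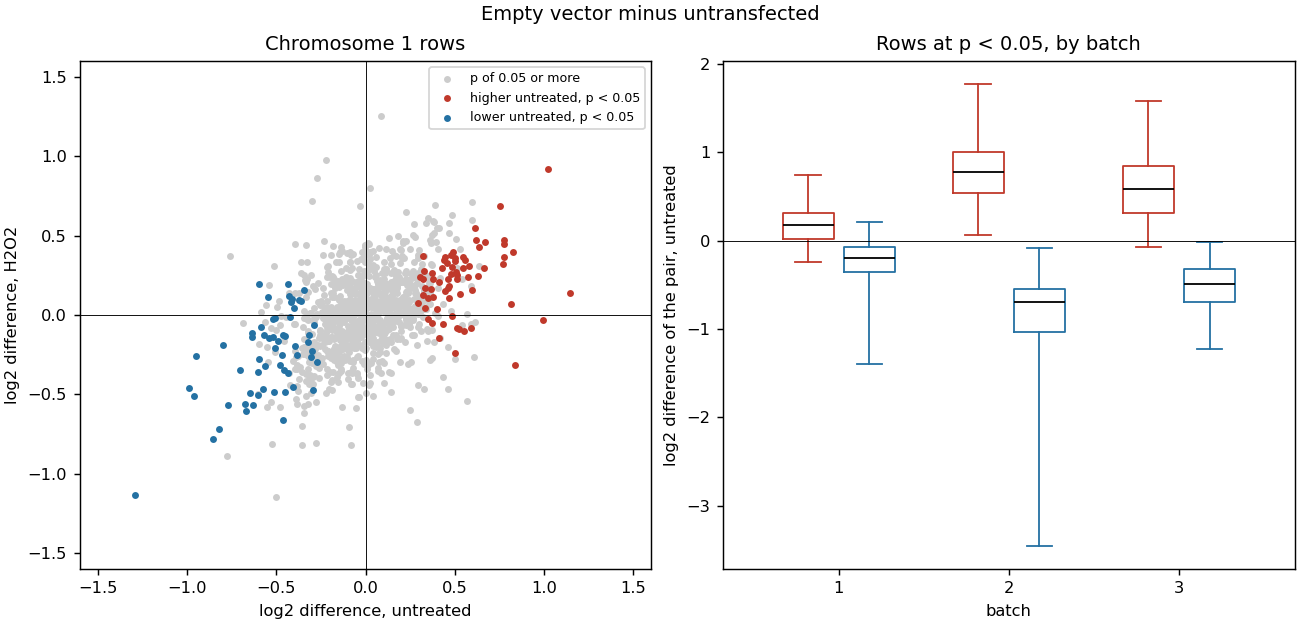
Left, log2 difference of empty vector minus untransfected cells without H2O2 (x axis) and with H2O2 (y axis) for the 1131 chromosome 1 rows, with the 67 higher rows in red, the 58 lower rows in blue and the rest in grey. Right, untreated log2 difference of each batch pair for the same 67 and 58 rows, with boxes for the quartiles, black lines for the medians and whiskers for the range. The medians of the red boxes are 0.18, 0.78 and 0.59 in batches 1, 2 and 3 and those of the blue boxes -0.19, -0.70 and -0.49.

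The untreated cells with EVI1 plasmids carried the same vector with an insert. They were set against the same 3 untransfected samples, so each value below shares its controls with the empty vector difference, and genes were picked on that difference. The values are given side by side as a description, with no count over genes and no test, and they are no independent support for it. SPATA1 differed from untransfected cells by 1.02 (SE 0.22) with empty vector, by 1.20 (SE 0.22) with EVI1-WT and by 1.28 (SE 0.22) with EVI1-AQA, and TESK2 by 0.99 (SE 0.22), 1.29 (SE 0.22) and 1.54 (SE 0.22). For SERINC2 these differences were 0.78, 1.04 and 0.86, and for RBM15 0.77, 1.09 and 0.94. For TAGLN2 they were -0.57, -0.55 and -0.43, for MOV10 -0.64, -0.57 and -0.66, for POLR3C -0.99, -0.90 and -0.89, and for MAGOH -0.52, -0.51 and -0.26. TOR3A was at -0.42 with empty vector, -0.20 with EVI1-WT and 0.01 with EVI1-AQA. PPIE was at 0.55 with empty vector and at 0.27 with either EVI1 plasmid. The difference between plasmids was not tested here for these genes.

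**Figure D4:**
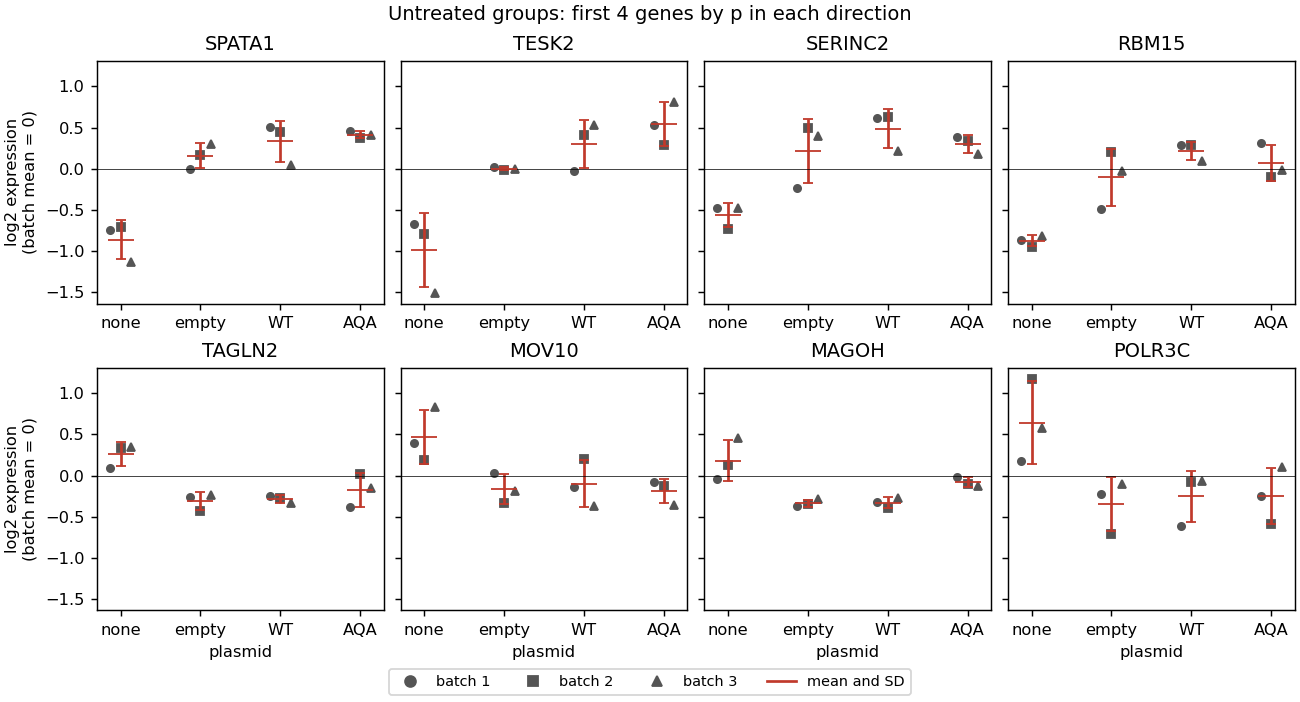
Log2 expression (y axis, log2 units with the mean of each batch at 0) of 4 genes lowest by p in each direction in the 4 untreated groups, which are untransfected (none), empty vector, EVI1-WT and EVI1-AQA. Points are samples, with the shape giving the batch, and red bars are the mean and SD of 3 samples. The untransfected samples of SPATA1 lie between -1.14 and -0.71, below every other untreated sample of that gene.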

How the data were processed

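Polyadenylated RNA of 24 HEK293 samples was read from its 3′ ends with a stranded QuantSeq FWD kit. The authors used an Ensembl release 90 annotation of GRCh38 and, in Qlucore Omics Explorer 3.3, removed low signals by an FPKM minimum of 10. The aligner, and whether reads were counted by strand, were not given in the sources used here. The authors deposited log2 values of 11579 rows after their normalization, and the mean of each row is 0 within each batch. Depth is unknown, so no counting interval or floor is given.

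Samples were grouped by their labels. A limma model (version 3.58.1, R 4.3.3) of all 24 samples had a mean for each of 8 groups, with the batch number, which equals the replicate number, as a block (14 residual and 5.04 prior degrees of freedom). The pairing comes from the batch entry of the labels. Correlations of deviations within a batch are set by the centring and do not test it. All tests were two-sided and adjusted by Benjamini-Hochberg over 11579 rows. An unadjusted p under 0.05 was also counted. The fit was tested on simulated data. Positions and symbols come from GENCODE v44 (10892 of 11579 identifiers found, 94.1%), and promoters from RefSeq on GRCh38.p14.

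Named genes were the 12 chromosome 1 rows lowest by p in each direction among those that moved the same way in 3 pairs, up to 3 called members per list and direction, the lowest p of a list without such a member, and JUN, ISG15, CDC20, GAS5 and PRDX1. Other listed genes were named after their values were seen, as were EFNA4, G0S2, SMIM1 and the row labelled CACNB3. Results of some genes are not reported here. Several named loci overlap other genes, so their reads could be shared. The comparison, the lists and the tests were chosen with earlier results of these data known. Alternatives were no replicate block, fits to 6 samples, to the 12 untreated samples and, for the H2O2 comparison, to the 12 empty vector and untransfected samples, sample median centring, quantile normalization, leaving out 3 H2O2 libraries, and leaving out each batch. Tables were made with pandas 2.3.3 and scipy 1.17.1 in Python 3.11.15, and plots with matplotlib 3.10.9.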

Additional observations from a re-analysis of the deposited data

Results flagged for a closer look

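The effect of the empty vector differed between untreated and H2O2 exposed cells for 6 named genes at an unadjusted p under 0.05 in the limma test of the difference itself, and none passed adjustment over all rows (adjusted p = 0.9996 for each). Of all 1131 chromosome 1 rows, 2.74% differed at this level. The effect with H2O2 less the effect without was -1.02 (SE 0.31) for TESK2, since empty vector cells stood 0.99 above untransfected cells without H2O2 and -0.03 from them with H2O2. It was -0.42 (SE 0.19) for TAF12 and -0.49 (SE 0.23) for RAB29, which were higher without H2O2. It was 0.44 (SE 0.20) for TAGLN2, 0.49 (SE 0.20) for MAGOH and 0.41 (SE 0.19) for TOR3A, which were lower without H2O2. In each of the 6 the effect was smaller with H2O2. Each had been named by its untreated effect, which is subtracted in this test, so the picking alone can favour such a difference. Without the 3 H2O2 libraries that departed from their labels the difference was -1.13 for TESK2, 0.51 for TAGLN2, 0.49 for MAGOH, 0.50 for TOR3A and -0.59 for RAB29, each again at an unadjusted p under 0.05, and -0.36, no longer at that level, for TAF12. In that fit RNPC3 (-0.56), COP1 (0.53) and MOV10 (0.58) reached an unadjusted p under 0.05 as well, and no gene passed adjustment.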

How the results depend on the processing

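The number of rows at an adjusted p under 0.05 from limma was 0 with the batch block and stayed 0 under the alternatives, apart from the fit without the replicate block, which gave 17 rows and 1 on chromosome 1, and leave-one-out fits, which gave 0 to 2. The values were already centred within batches, so taking out the block left each difference unchanged and raised the residual degrees of freedom from 14 to 16. That all 67 and 58 chromosome 1 calls were kept follows from this and says nothing about their stability. Counts at an unadjusted p under 0.05 moved by over 1.5 times with quantile normalization, to 443 higher and 401 lower rows and to 41 higher on chromosome 1, and in the fit to the 6 samples alone, to 374 lower rows and to 40 higher on chromosome 1. Leaving out a batch gave 322 to 968 higher and 155 to 837 lower rows, 29 to 91 and 17 to 99 on chromosome 1, and 231 to 534 rows for the difference between treatments, the lowest each time without batch 2. Of the 67 and 58 calls, quantile normalization kept 41 and 35 and the fit to 6 samples 32 and 30, and none changed sign under any alternative. The alternatives use the samples on which the rows were picked, so an unchanged sign says little about stability. Over the 53 named genes, 383 of 477 values kept their direction and their side of the threshold, 76 lost it, 10 gained it and 8 reversed, each in a gene that was not called. JUN turned to 0.0303 under quantile normalization. Across the leave-one-out fits CDC20 ran from -0.24 without batch 2 to 0.75, H2AC20 from -0.68 to 0.13 without batch 2, ISG15 from -0.19 to 0.02 without batch 2 and 0.17 without batch 3, and, with the reversed value without batch 3, GAS5 from -0.0824 to 0.43, PRDX1 from -0.32 to 0.15 and JUN from -0.19 to 0.17. The median of all rows shifted by -0.0118 under quantile normalization and -0.0071 under median centring. The causes were not tested, apart from the fewer samples of some fits. No levels or read counts limit these values, so a difference in a weakly expressed gene could not be weighed against its counting error.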

Other observations

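Some further called rows outside the lists were chosen after their values were seen. They are given one by one, no group of them was tested, and none passed adjustment. TRAPPC3, a core subunit of the TRAPP tethering complexes, was higher by 0.41 (SE 0.12, limma adjusted p = 0.256), with 0.25, 0.62 and 0.35 in the 3 pairs. RPAP2, a phosphatase of RNA polymerase II, was at -0.96 (SE 0.27) and the volume-regulated channel subunit LRRC8D at -0.86 (SE 0.27). RPAP2 and LRRC8D moved slightly the other way in pair 1 (0.10 and 0.06) and by -1.87 and -1.83 in pair 2. The glycine transporter SLC6A9 was at -0.82 (SE 0.31) and the oxygen-sensing hydroxylase EGLN1 at -0.41 (SE 0.16).

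The pseudogene rows NDUFA4P1, SNRPGP10 and MTATP6P1 were called higher, at 0.81 (SE 0.27), 0.84 (SE 0.30) and 0.66 (SE 0.23). Each is a near copy of a gene elsewhere in the genome, so reads of the parent gene could be counted there, and their source was not tested.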
